A study of Mus musculus with 11 samples.

Results

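The 10 genes described here encode chaperones and folding enzymes of the endoplasmic reticulum (ER), namely Hspa5, Dnajb9, Hyou1, Sdf2l1, Hsp90b1, Calr, Pdia4, Pdia6, Creld2 and Manf. They were taken by gene name from a table of 53924 named genes, each name had 1 row, and all 10 were among the 16990 genes with enough counts to be tested. The genes were chosen by their CPM and fold changes in these same 11 libraries, p212fs against WT among them, so their own values are given as a description and without p-values. Counts of members past the threshold of the fit over all genes are printed beside the share of all genes past it; since the same values chose the members, nothing is read from any of these counts, in any comparison. Dnajb9, Hsp90b1, Calr, Pdia4, Pdia6 and Creld2 are the 6 members that pass the threshold between p212fs and wild type.

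RNA-seq of mouse embryonic fibroblasts (MEFs) gave the levels; these are connective tissue cells grown from embryos of day 13.5 and collected at passage 2. Groups differed in the genotype of Trex1, a cytosolic DNA exonuclease: 3 libraries were wild type (WT), 3 were Trex1-/-, 3 carried the active-site change D18N and 2 carried p212fs, by its name a frameshift. No treatment or further allele is labelled for any group. The labels do not give the zygosity of D18N and p212fs, do not tell whether replicates were separate cultures or animals, and name primary and spontaneously immortalized MEFs together in the culture protocol. P-values therefore measure the spread between these libraries, which may be technical.

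Proteins that enter the secretory pathway fold in the ER, where BiP, lectin chaperones and disulfide isomerases hold and oxidize them. When unfolded protein accumulates, the sensors ATF6, IRE1 and PERK start the unfolded protein response (UPR). ATF6 and XBP1, the factor that IRE1 activates by splicing its mRNA, induce chaperone genes through the ER stress element (ERSE), while PERK phosphorylates eIF2alpha and raises ATF4. Fibroblasts are professional secretors of collagen, and their ER is stocked accordingly. Splicing of Xbp1 and cleavage of ATF6 were not measured here.

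Library depth ran from 16059426 to 21748034 counts on named genes, and the least counted member, Sdf2l1, had at least 183 counts in a library. No library, WT or mutant, had a count for Trex1 (0 in each of the 11), and its level therefore checks no genotype label. All 10 fibroblast markers examined, among them Col1a1, Col1a2 and Pdgfra, were present in every genotype. Xist, the RNA of the inactive X chromosome, and the Y-linked Ddx3y divided the libraries by embryo sex. All WT libraries, Trex1-/- replicate 2 and D18N replicate 1 had the female pattern, and the other 6, both p212fs libraries included, the male one. Sex and genotype cannot be told apart between p212fs and WT.

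The promoters are shown first because several members hold the element through which ATF6 and XBP1 are known to act. Windows from 250 bases before to 50 bases after the RefSeq start (build GRCm38.p6) were available for 8 of the 10 genes. They were searched on both strands for the complete ERSE, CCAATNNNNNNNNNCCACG, for ERSE-II, which is ATTGG and CCACG with any 1 base between them, and for the core CCACG, which lies within both. The complete ERSE occurred in 5 of the 8 windows (62.5%), against 39 of 32851 windows of the whole table (0.119%) and 5 of 153 windows of other protein-folding genes (3.27%). Hsp90b1 held it 2 times. The 6 sites, each read along the motif with the CCAAT and CCACG boxes in capitals, were as follows.
Calr, chr8:84847075-84847093, motif on the opposite strand, -162 to -144 from the start: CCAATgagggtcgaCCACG
Pdia6, chr12:17266491-17266509, motif on the coding strand, -98 to -80 from the start: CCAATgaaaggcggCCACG
Creld2, chr15:88819520-88819538, motif on the opposite strand, -126 to -108 from the start: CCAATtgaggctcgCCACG
Hsp90b1, chr10:86705638-86705656, motif on the coding strand, -212 to -194 from the start: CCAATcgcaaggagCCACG
Hsp90b1, chr10:86705533-86705551, motif on the opposite strand, -107 to -89 from the start: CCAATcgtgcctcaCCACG
Hspa5, chr2:34772025-34772043, motif on the coding strand, -65 to -47 from the start: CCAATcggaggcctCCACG

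In these sites both boxes were fixed by the search, and the 9 bases between them differed from gene to gene. The motif stood on the coding strand in Pdia6, Hspa5 and at the upstream site of Hsp90b1, and on the opposite strand in Calr, Creld2 and at the downstream site of Hsp90b1. The core CCACG was found in all 8 windows (100%), against 60.1% of the windows of the other protein-folding genes and 32.8% of all windows, and ERSE-II in 0 of 8, against 1.31% and 0.0365%. The windows of Pdia4, Dnajb9 and Sdf2l1 held the core without a complete ERSE, with 1, 2 and 3 occurrences. The ERSE was already known as an element of ER chaperone genes, so these shares are a description and no test. A match of letters is not a measured binding site.

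Whole windows of 3 genes are printed with the complete elements in capitals, in the direction of transcription: Hspa5 for the best known UPR target, Calr for the member with the highest fold difference between p212fs and WT, and Hsp90b1 for its pair of elements.
Hspa5 promoter, chr2:34771840-34772139, plus strand: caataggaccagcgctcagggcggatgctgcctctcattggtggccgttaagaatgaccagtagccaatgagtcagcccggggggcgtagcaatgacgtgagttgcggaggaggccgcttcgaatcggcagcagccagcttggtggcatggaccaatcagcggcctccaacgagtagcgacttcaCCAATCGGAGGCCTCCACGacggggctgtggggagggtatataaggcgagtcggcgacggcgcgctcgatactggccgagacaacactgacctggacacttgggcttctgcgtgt
Calr promoter, chr8:84846882-84847181, minus strand: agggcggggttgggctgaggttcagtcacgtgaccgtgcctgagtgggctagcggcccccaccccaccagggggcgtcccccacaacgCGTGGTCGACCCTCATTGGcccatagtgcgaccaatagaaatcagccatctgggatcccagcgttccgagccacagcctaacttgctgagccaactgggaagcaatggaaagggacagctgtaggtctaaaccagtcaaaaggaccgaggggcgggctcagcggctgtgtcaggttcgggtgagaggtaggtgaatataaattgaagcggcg
Hsp90b1 promoter, chr10:86705395-86705694, minus strand: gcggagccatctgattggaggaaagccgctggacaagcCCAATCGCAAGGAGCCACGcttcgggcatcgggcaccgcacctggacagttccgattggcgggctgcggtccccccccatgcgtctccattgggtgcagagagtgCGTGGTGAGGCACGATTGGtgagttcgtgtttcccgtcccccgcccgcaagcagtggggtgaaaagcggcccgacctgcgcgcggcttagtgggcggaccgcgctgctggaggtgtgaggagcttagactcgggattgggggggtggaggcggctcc

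**Figure D1:**
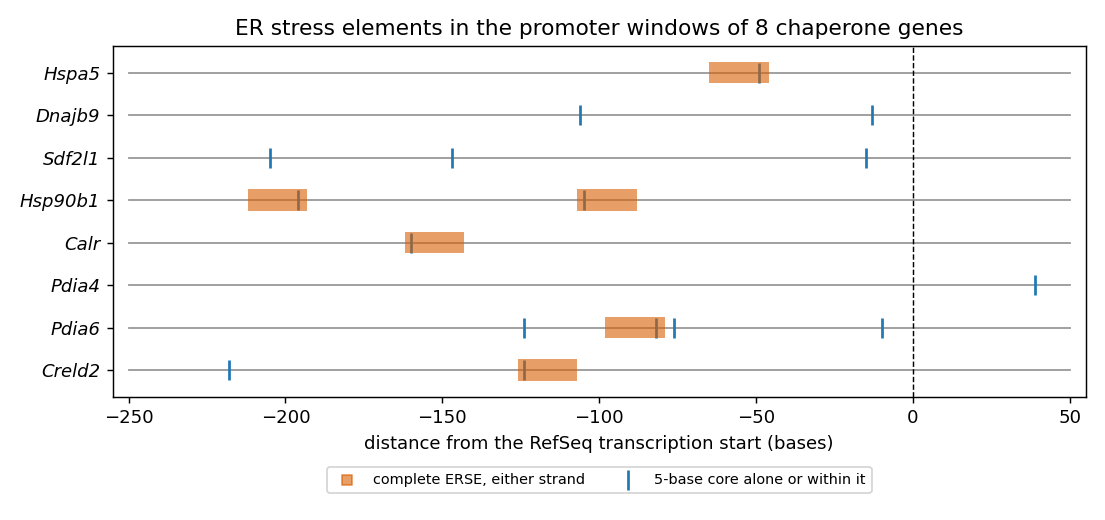
Position of the complete ERSE (orange blocks) and of the core (blue ticks) on either strand in the promoter windows of 8 ER chaperone genes; the x axis is the distance in bases from the RefSeq transcription start. Complete elements lie upstream of the start in 5 genes, from -65 to -47 in Hspa5 out to -212 to -194 in Hsp90b1.

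Levels are given in CPM, the counts of a gene per 1000000 counts on named genes in that library. Values are listed in the order of the replicate numbers. Together the 10 genes took 0.479%, 0.474% and 0.509% of the counts of the WT libraries, and for Trex1-/- the shares were 0.396%, 0.474% and 0.454%. They took 0.369%, 0.378% and 0.451% in D18N, and 0.757% and 0.746% in p212fs. The p212fs libraries lay above all 9 others, WT and Trex1-/- overlapped, and all D18N libraries lay below WT. Read per kilobase of exon, which allows genes to be compared, the WT order was Calr (447 ± 33.1 CPM per kilobase, SD, n = 3), Hspa5 (307 ± 10.1), Hsp90b1 (204 ± 15.1), Pdia6 (170 ± 8.70) and Pdia4 (141 ± 14.6). Manf (47.6 ± 4.53), Creld2 (41.2 ± 2.62), Hyou1 (30.1 ± 2.76), Sdf2l1 (23.3 ± 1.55) and Dnajb9 (8.80 ± 0.749) followed. Only the neighbours Manf and Creld2 overlapped between WT libraries.

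**Figure D2:**
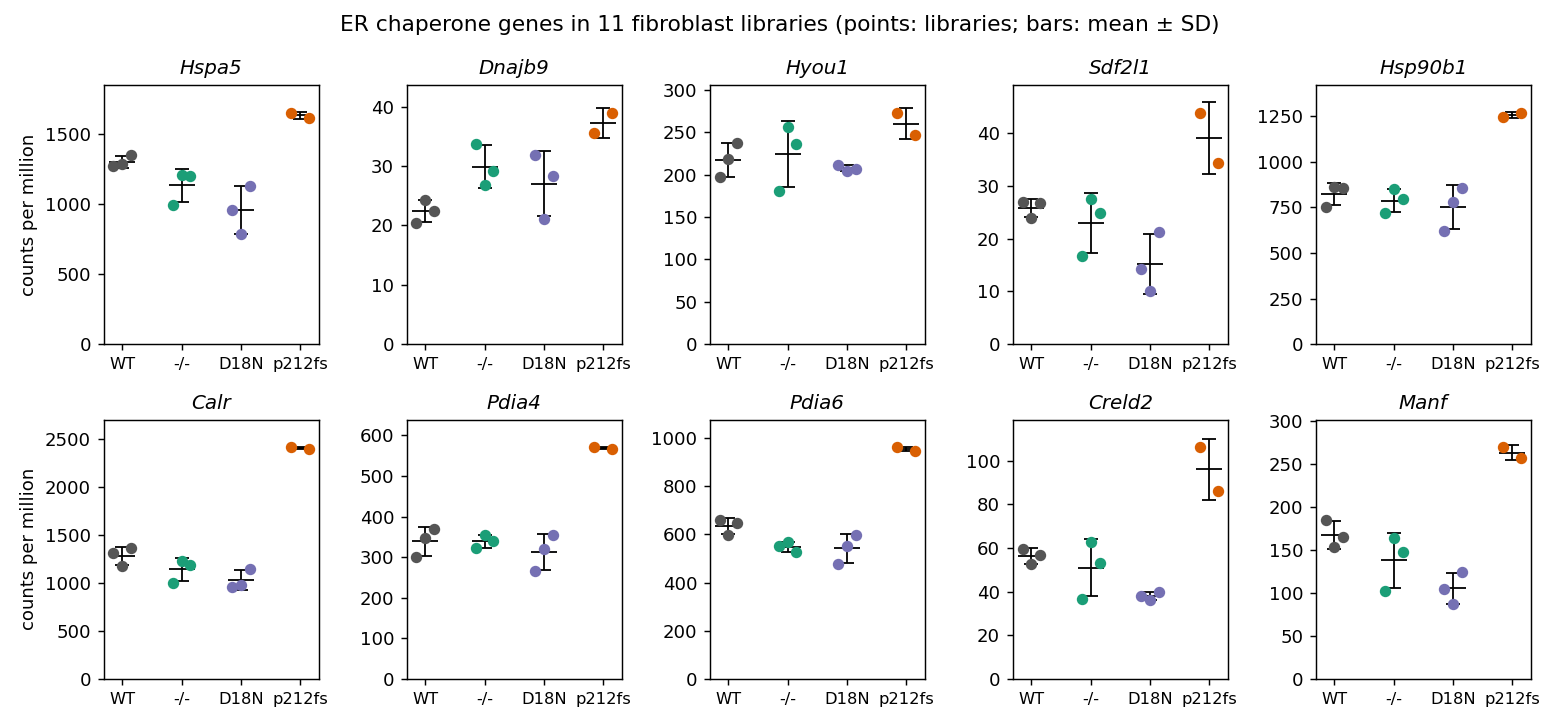
CPM of the 10 ER chaperone genes in each library (points), with the mean and SD of each genotype (bars); y axes start at 0 and differ between genes. In 9 genes both p212fs libraries lie above the 9 others; in Hyou1 they lie above WT and D18N, and 1 Trex1-/- library reaches between them.

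BiP and the proteins that drive its cycle come first. Hspa5, which encodes BiP, the Hsp70 of the ER and the protein that keeps the UPR sensors silent, lies at chr2:34771970-34777547 (GRCm38). It had 1268, 1282 and 1348 CPM in WT, 994, 1203 and 1198 in Trex1-/-, 959, 784 and 1130 in D18N, and 1650 and 1614 in p212fs. The p212fs libraries were the highest, while every Trex1-/- and D18N library lay below every WT library. The log2 fold change against WT was 0.27 ± 0.17 (approximate SE) in p212fs, -0.21 ± 0.15 in Trex1-/- and -0.43 ± 0.15 in D18N. BiP thus differed less between p212fs and WT than most of the other members did.

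Dnajb9 (chr12:44205559-44210326) encodes ERdj4, a J-domain protein that stimulates the ATPase of BiP and acts in its hold on IRE1. It had 20.5, 24.3 and 22.5 CPM in WT, 33.8, 26.8 and 29.2 in Trex1-/-, 31.8, 21.1 and 28.3 in D18N, and 35.5 and 39.0 in p212fs. WT was the lowest genotype on average, which was so for no other member. Its log2 fold changes were 0.67 ± 0.16 in p212fs, 0.41 ± 0.15 in Trex1-/- and 0.28 ± 0.15 in D18N, so that it alone was above 0 in all 3 mutants by more than 1 SE.

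Hyou1 (chr9:44379490-44392369), the nucleotide exchange factor GRP170 that resets BiP, had 197, 219 and 237 CPM in WT, 181, 256 and 236 in Trex1-/-, 211, 204 and 207 in D18N, and 273 and 247 in p212fs. Its genotypes lay closest together of all members, with log2 fold changes of 0.20 ± 0.16, 0.04 ± 0.14 and -0.06 ± 0.14 in p212fs, Trex1-/- and D18N. Sdf2l1 (chr16:17130138-17132383), a partner of ER J-domain proteins, had 26.9, 23.8 and 26.7 CPM in WT, 16.6, 27.5 and 24.8 in Trex1-/-, 14.2, 10.1 and 21.2 in D18N, and 43.8 and 34.2 in p212fs. It was the lowest in D18N (-0.76 ± 0.26) and high in p212fs (0.53 ± 0.29), and its libraries of a genotype were more scattered than those of the other members.

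Hsp90b1 and Calr follow. Hsp90b1 (chr10:86690209-86705509) encodes GRP94, the Hsp90 of the ER. It had 754, 863 and 856 CPM in WT, 719, 848 and 793 in Trex1-/-, 622, 779 and 856 in D18N, and 1242 and 1268 in p212fs. WT, Trex1-/- and D18N overlapped, and p212fs stood apart (log2 fold change against WT 0.55 ± 0.16). In the annotation, 415 of its 4032 exonic bases are shared with 1810014B01Rik on the other strand and 217 with small genes on its own; the strand setting of the counting is not given in the sources used here.

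Calr (chr8:84841850-84846934) encodes calreticulin, the soluble calcium-binding lectin that retains glycoproteins until they fold. It had 1317, 1179 and 1362 CPM in WT, 1002, 1234 and 1194 in Trex1-/-, 962, 982 and 1149 in D18N, and 2416 and 2403 in p212fs. The difference between p212fs and WT was the highest of the 10 (log2 fold change 0.84 ± 0.15, 1.80-fold), and D18N lay below WT without overlap (-0.31 ± 0.14). Calr made up 26.4% of the summed level of the members in WT and 32.1% in p212fs, while the share of Hspa5 went from 26.7% to 21.7%.

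The thiol enzymes come next. Pdia4 (chr6:47796141-47813430), the disulfide isomerase ERp72, had 301, 346 and 370 CPM in WT, 323, 354 and 339 in Trex1-/-, 266, 320 and 354 in D18N, and 570 and 567 in p212fs. Pdia6 (chr12:17266545-17284770), the isomerase P5, had 660, 598 and 646 CPM in WT, 550, 567 and 526 in Trex1-/-, 478, 552 and 597 in D18N, and 961 and 948 in p212fs. Both stood out in p212fs, with log2 fold changes of 0.69 ± 0.15 and 0.53 ± 0.14. Pdia4 overlapped between the other 3 genotypes, whereas Pdia6 was lower than WT in every Trex1-/- and D18N library (-0.23 ± 0.12 and -0.22 ± 0.12).

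Creld2 (chr15:88819646-88826683), an ER-resident protein with EGF-like repeats that is induced in ER stress, had 59.6, 52.5 and 56.9 CPM in WT, 36.8, 62.6 and 53.1 in Trex1-/-, 38.1, 36.2 and 40.0 in D18N, and 106 and 86.2 in p212fs. Manf (chr9:106838312-106891979), a secreted BiP-binding factor that protects cells under ER stress, had 185, 153 and 165 CPM in WT, 102, 164 and 148 in Trex1-/-, 104, 87.4 and 124 in D18N, and 269 and 257 in p212fs. Both were high in p212fs (0.71 ± 0.20 and 0.59 ± 0.21) and low in D18N (-0.56 ± 0.19 and -0.67 ± 0.19), and D18N did not overlap with WT. The annotated exons of Manf share 312 of 3524 bases with genes of the other strand.

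**Figure D3:**
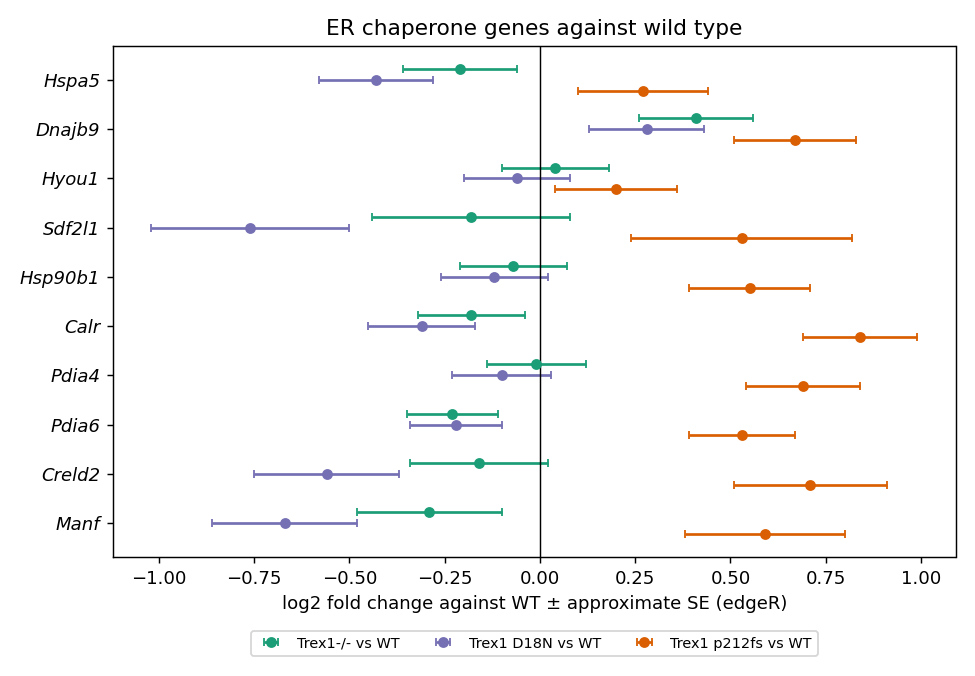
Log2 fold change of each ER chaperone gene against WT with its approximate standard error, for Trex1-/-, D18N and p212fs. All p212fs values lie right of 0, from 0.20 (Hyou1) to 0.84 (Calr), and all D18N values except Dnajb9 lie left of it.

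Set side by side, the p212fs libraries were higher than WT in 10 of 10 members without overlap, which held for 30.8% of all genes tested. By edgeR's quasi-likelihood test 6 members passed an adjusted p of 0.05 and were higher, where 8.13% of all genes were called higher. The median log2 fold change was 0.57 over the members and -0.02 over all genes. With the sex pattern in the fit the median over the members was 0.64, with 10 above 0. Over all genes, calls of higher level numbered 1382 here, 819 and 732 without WT replicates 2 and 3, and 728 with the sex term. The calls of the members depended on both p212fs libraries. With either left out, the group held 1 library and calls fell over all genes as well. Without WT replicates 2 and 3, 3 and 2 members passed, and 1 passed when the sex pattern was added to the fit. The median stayed between 0.54 and 0.62 with any library left out.

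The p212fs libraries were also set against the mutants of the same sex pattern. Both lay above the 4 male-pattern Trex1-/- and D18N libraries in 10 of 10 members, as for 30.6% of all genes, and above all 9 other libraries in 9, as for 17.7%. Against Trex1-/- the members had a median log2 fold change of 0.70 and 7 passed (15.4% of all genes were called higher); against D18N it was 0.77 and 8 passed (18.6%). A fit of the 6 male-pattern libraries alone, which was chosen with the data in view, gave medians of 0.77 and 0.69. These comparisons share the p212fs libraries, and the values in them were among those that chose the genes. Against Trex1-/- fewer members passed with either p212fs library left out, where calls over all genes fell as well. Between D18N and Trex1-/- all 10 members overlapped, where 13.3% of all genes were higher and 14.7% lower without overlap. By edgeR or DESeq2 0 passed (6.8% of all genes were called by edgeR), with a median of -0.13. Without Trex1-/- replicate 1, 2 members were called lower, as were 1102 of 16894 genes. Within Trex1-/- the female-pattern library had the highest summed level of the members (0.474% of counts), and within D18N the lowest (0.369%).

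In D18N the members leaned the other way: 9 of 10 had a log2 fold change below 0 against WT, with a median of -0.26 beside 0.04 over all genes. Of all 16990 genes 8913 were above 0. Pdia4 (-0.1 ± 0.13), Hsp90b1 (-0.12 ± 0.14) and Hyou1 (-0.06 ± 0.14) lay within 1 SE of 0. The number below 0 was 7 without D18N replicate 1 and 8 with the sex term. Hspa5, Sdf2l1, Calr, Pdia6, Creld2 and Manf were lower without overlap, as were 22.7% of all genes, and 2, Creld2 and Manf, were past the threshold, as were 13.2% of all genes in that direction. Neither was past it without WT replicate 1 or 3, without D18N replicate 1 or 2, or with the sex term. Other settings called more members lower. There were 4 by DESeq2 and without Trex1-/- replicate 1 or 2, where 2639, 2717 and 2689 of all genes were called lower. There were 3 without the filter or without D18N replicate 3, where 2220 and 1622 were. In Trex1-/- 8 of 10 were below 0 (median -0.17, all genes 0.01) and 0 passed by edgeR or DESeq2, as did 0% of all genes by edgeR. Pdia6 and Hspa5 were lower without overlap (12.5% of all genes were) and Dnajb9 higher (10% were). Trex1-/- replicate 1 was the lowest of its genotype in Calr, Creld2, Hsp90b1, Hspa5, Sdf2l1, Manf, Pdia4 and Hyou1 and the highest in Dnajb9.

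Some of the members also varied together outside p212fs. Over the 9 libraries other than p212fs, the correlation of a member with the mean of the other members (z-scored log2 CPM, Pearson) was 0.94 for Sdf2l1, 0.91 for Calr and Manf, 0.90 for Hspa5 and 0.89 for Creld2. It was between 0.54 and 0.65 for Pdia4, Pdia6, Hsp90b1 and Hyou1, and -0.44 for Dnajb9. The 9 libraries cover WT, Trex1-/- and D18N, so differences between these genotypes enter the correlations, and correlations within a genotype were not computed. Genes share library and depth here, the members were chosen by these same levels, and these values are a description.

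Markers of other cells and of fibroblasts differed between the genotypes as well. The 10 fibroblast markers summed to 25872 to 29926 CPM in p212fs, 51536 to 57022 in WT, 53245 to 62422 in Trex1-/- and 69258 to 81383 in D18N, with no marker at 0. The 10 skeletal muscle markers summed to 722 to 1783 CPM in D18N and to at most 39.8 elsewhere, with Myf5 at 0 outside D18N. The 10 macrophage markers summed to 750 to 983 CPM in WT, 199 to 336 in Trex1-/-, 57.1 to 118 in D18N and 470 to 627 in p212fs, with no marker at 0. Endothelial, epithelial and erythroid lists stayed at or below 51.6 CPM in every library (Tie1 was at 0 in WT and p212fs, Hba-a1 in every genotype), and neuronal and glial markers summed to 104 to 352 CPM. The part of these differences in the chaperone levels was not tested, and in bulk samples fewer cells of a type and less RNA per cell cannot be told apart.

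The rest of the folding machinery was examined through 8 lists of 153 genes that hold none of the 10, and all 153 were tested. These lists were chosen with earlier results of these data known, so their shares beside those of all genes are a description. In p212fs against WT, 28 rose and 21 fell (32.0% called, against 17.1% of all genes), with different directions in different lists. Over all genes 8.13% were called higher and 8.95% lower, the background for each p212fs count below. The count of 49 became 8 and 10 without p212fs replicates 1 and 2, 28 without WT replicate 3 and 17 when the sex pattern was in the fit.

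Of 37 other ER folding factors 14 rose and 2 fell in p212fs (median log2 fold change 0.33). Pdia3, the disulfide isomerase that works with calreticulin, had 1978 and 2016 CPM in p212fs and 963 to 1114 in WT (0.87 ± 0.15, edgeR adjusted p = 0.00372). Creld1, the membrane-anchored paralogue of Creld2, had 94.3 and 94.9 CPM against 33.7 to 39.6 (1.31 ± 0.12, adjusted p = 2.5e-04), and the prolyl isomerase gene Fkbp7 rose as well (0.90 ± 0.14, adjusted p = 0.00253). These genes stood above all WT libraries. The lectin chaperone Canx (0.48 ± 0.13), the BiP cochaperone Dnajb11 (0.58 ± 0.17) and Sdf2 (0.75 ± 0.15), the paralogue of Sdf2l1, were also higher; these 3 were chosen after their values were seen, as were the 2 that fell, the oxidase gene Ero1a (-0.67 ± 0.17) and the collagen chaperone gene Serpinh1 (-0.50 ± 0.16). Serpinh1 lost its call under 14 of 17 alternatives, Canx under 6, Dnajb11 under 5, Ero1a under 4 and Sdf2 under 2, whereas Pdia3, Creld1 and Fkbp7 kept theirs under all 17. The list held 10, 7, 3 and 3 risen genes without WT replicate 2, WT replicate 3 and each p212fs library, and 5 with the sex term.

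Of 24 genes of ER-associated degradation, which returns misfolded proteins to the cytosol, 5 rose and 1 fell in p212fs. The lectin gene Erlec1 rose from 36.1 ± 1.39 (n = 3) to 58.1 ± 2.82 CPM (SD, n = 2; 0.62 ± 0.12, edgeR adjusted p = 0.00697), and so did Selenok (0.81 ± 0.14) and the mannosidase-like gene Edem2 (0.68 ± 0.16). Herpud1, a scaffold of the degradation complex and a known target of both ATF6 and ATF4, was the gene that fell (-0.54 ± 0.15, adjusted p = 0.0313), named after its value was seen; its call was lost without WT replicate 3 and without either p212fs library. Erlec1 and Edem2 lost their calls with either p212fs library left out or with the sex term, Selenok without p212fs replicate 1 or with the sex term, and Edem2 also without WT replicate 2. In the translocon and signal peptidase list 4 of 17 rose, among them Sec61b (0.63 ± 0.15) and Sec61g (0.79 ± 0.17), subunits of the channel into the ER. Of 18 genes of ER export 3 rose, Sec13, Sar1b and Surf4, and Mia3, a receptor for procollagen, fell (-0.47 ± 0.13); Surf4 was chosen after its value was seen. In these last 2 lists 0 genes passed with the sex term or with either p212fs library left out.

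Of 13 UPR sensors and transcription factors 0 rose by edgeR (1 by DESeq2, and 1 by edgeR without WT replicate 1) and 4 fell in p212fs: Atf6 (31.2 ± 0.812 against 52.9 ± 11.4 CPM; -0.82 ± 0.18, edgeR adjusted p = 0.0111), Creb3l1, an ATF6-related factor of collagen-secreting cells (-0.89 ± 0.20), Nfya, a subunit of the factor that binds CCAAT boxes (-0.44 ± 0.12), and Ern1, which encodes IRE1 (-0.84 ± 0.26). Ern1 was chosen after its value was seen, as was Xbp1, with 177 and 185 CPM in p212fs and 162 to 180 in WT (0.03 ± 0.14, adjusted p = 0.893). Their transcript levels say nothing of splicing or cleavage. Nfya and Ern1 each lost their call under 11 of 17 alternatives, the sex term and either p212fs library left out among them; those of Atf6 and Creb3l1 were lost when either p212fs library was left out, and that of Creb3l1 with the sex term too.

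Of 16 genes of the PERK branch and the integrated stress response 10 fell and 0 rose by edgeR or DESeq2 in p212fs (median -0.95). Trib3, an inhibitor of ATF4 signalling that ATF4 itself induces, had 32.4 and 29.0 CPM against 156 to 211 in WT (-2.62 ± 0.27, edgeR adjusted p = 4.3e-04). The asparagine synthetase gene Asns had 88.5 and 91.6 CPM against 260 to 342 (-1.78 ± 0.23), and the cystine transporter gene Slc7a11 fell by 1.89 ± 0.24 on the log2 scale. Atf4 itself fell from 521 ± 86.5 to 291 ± 5.29 CPM (-0.91 ± 0.19, adjusted p = 0.00945), and Ddit3, which encodes the pro-apoptotic factor CHOP, had -0.46 ± 0.18 (adjusted p = 0.0965); both were chosen after their values were seen. Trib3, Asns and Slc7a11 kept their calls under all 17 alternatives, and Atf4 lost its call when either p212fs library was left out. The number that fell was 5 with either p212fs library left out and 8 with the sex term. Chaperone transcripts were high in the same libraries in which transcripts of the PERK branch were low.

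**Figure D4:**
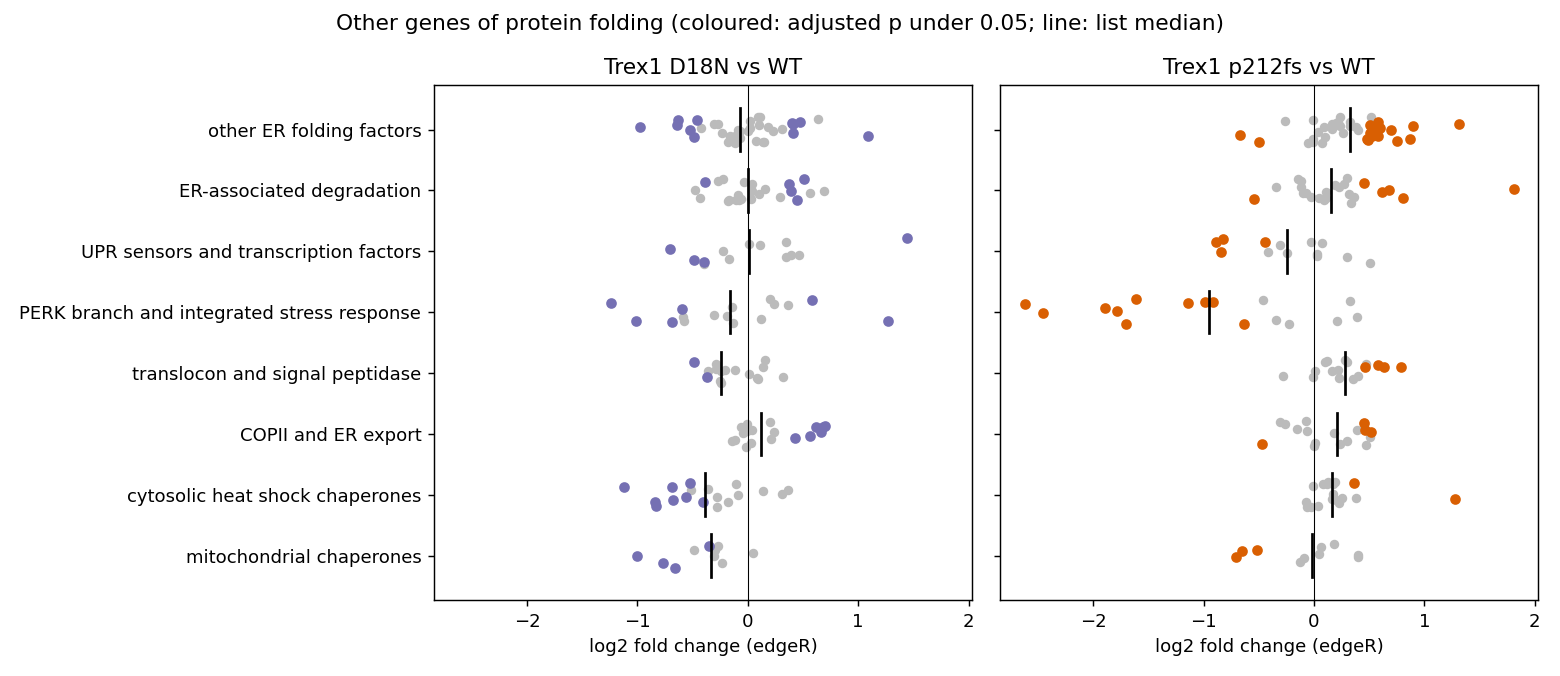
Log2 fold change of 153 other genes of protein folding in D18N (left) and p212fs (right) against WT, by list; each point is a gene, coloured where its adjusted p is under 0.05, and the black line is the list median. In p212fs the points of the other ER folding factors lie mostly right of 0 (median 0.33) and those of the PERK branch left of it (median -0.95).

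Chaperones outside the ER were compared as well. Of 18 cytosolic heat shock chaperones 2 rose in p212fs, Hspb1 (1.28 ± 0.21, edgeR adjusted p = 0.00364) and Chordc1 (0.36 ± 0.11). That is 11.1% of the list, near the 8.13% of all genes called higher. Of 10 mitochondrial ones 3 fell, Hspa9 (-0.65 ± 0.12), Dnaja3 (-0.52 ± 0.11) and Lonp1 (-0.71 ± 0.14). All 5 lost their calls without p212fs replicate 1. In D18N 8 of the 18 cytosolic genes fell (2 to 10 with a library left out; median of the list -0.38), among them Hsp90aa1 (323, 324 and 442 CPM against 624 to 693; -0.84 ± 0.17, adjusted p = 0.00772) and its activator Ahsa1 (-1.12 ± 0.18). Over all genes 13.2% were called lower in D18N. The mitochondrial chaperonin gene Hspd1 also fell in D18N, from 428 ± 54.9 to 214 ± 28.8 CPM (SD, n = 3 each; edgeR adjusted p = 0.00178), as did Hspe1 and Clpp.

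In D18N 18 of the 153 genes rose and 28 fell (30.1% called, against 25.3% of all genes). Over all genes 12.2% were called higher and 13.2% lower. Of 18 ER export genes 6 rose (2 to 6 with a library left out), led by Sec16a (0.66 ± 0.13), Mia3 (0.56 ± 0.12) and Sec24d (0.62 ± 0.16), parts of the coat and receptor system that carries procollagen out of the ER. Of 13 UPR sensors and transcription factors 1 rose and 3 fell. The gene that rose was Ern1, from 19.9 ± 7.65 (SD, n = 3) to 53.3 ± 5.78 CPM (n = 3, log2 fold change 1.44 ± 0.23, edgeR adjusted p = 0.00253), a call kept under all 17 alternatives. Nfyc fell and kept its call under all 17 too. Atf6b and Nfyb, the latter chosen after its value was seen, fell and lost their calls under 5 and 12. In the translocon and signal peptidase list 0 rose and 2 fell, Ssr2 and Spcs3, with calls lost under 4 and 7. That is 11.8% of the list, near the 13.2% of all genes called lower. Of the other ER folding factors 5 rose, led by Ero1a (1.09 ± 0.15, adjusted p = 0.00114), and 6 fell, led by Erp29 (-0.64 ± 0.12) and Fkbp2 (-0.98 ± 0.19). In the degradation list Sel1l (0.51 ± 0.15), Edem1 (0.37 ± 0.12) and Os9 (0.39 ± 0.13) rose, and each lost its call under at least 9 alternatives. Of 16 genes of the PERK branch 2 rose, Ddit4 (1.27 ± 0.15) and Vldlr (0.58 ± 0.19), and 4 fell, Psat1 (-1.01 ± 0.20) and Phgdh (-1.24 ± 0.18) of serine synthesis, Asns (-0.69 ± 0.19) and Slc7a11 (-0.60 ± 0.19). Vldlr, Asns and Slc7a11 were chosen after their values were seen and lost their calls under 10, 4 and 7 alternatives. The count of 46 was 21, 20, 27, 18 and 27 without WT replicates 1 and 3 and D18N replicates 1, 2 and 3, and 18 with the sex term.

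In Trex1-/- against WT 0 of the 153 genes passed by edgeR and 2 by DESeq2 (for all genes 0 and 846, with 3862 at an unadjusted p under 0.05). The most abundant of the folding factors, Serpinh1, had a log2 fold change of -0.23 ± 0.14 (adjusted p = 0.340) and P4hb, the major disulfide isomerase, -0.11 ± 0.12. Without WT replicate 2 edgeR called 24.

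**Figure D5:**
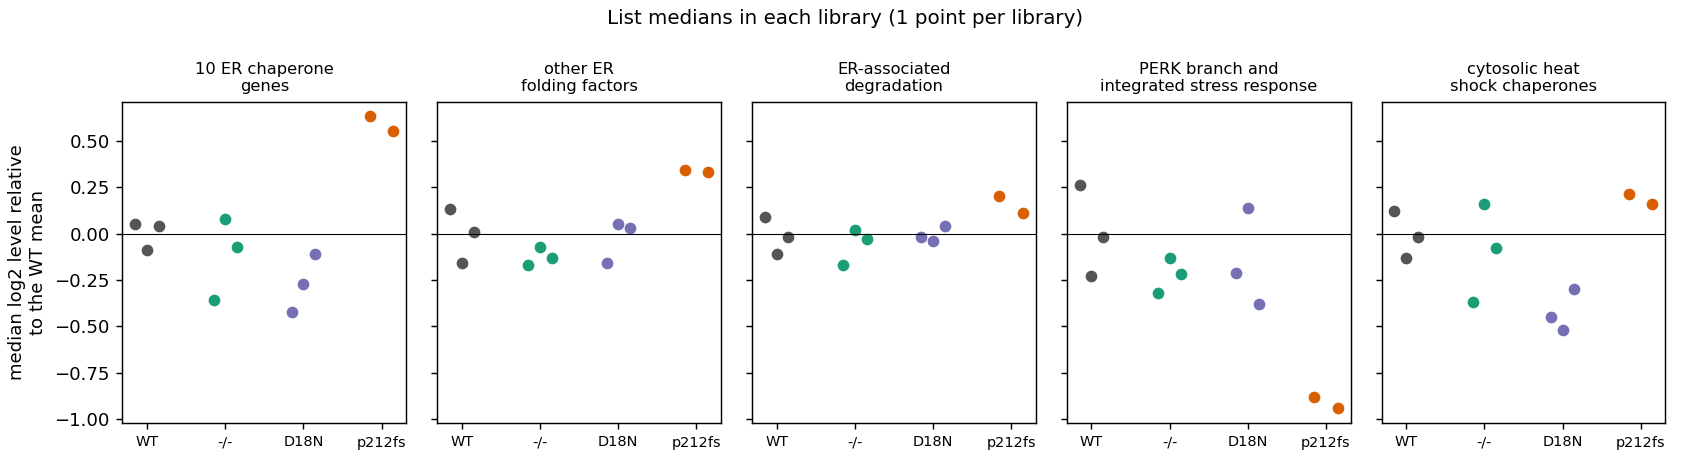
Median log2 level of the genes of a list in each library relative to the WT mean, for the 10 ER chaperone genes and 4 other lists (1 point per library, coloured by genotype). The p212fs libraries lie at 0.63 and 0.55 for the chaperone genes and at -0.88 and -0.94 for the PERK branch, each outside the range of the 9 other libraries.

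Genes outside the 10 were ranked by how closely their level followed the mean of the members over the 11 libraries. Dnajb11, which encodes the BiP cochaperone ERdj3, was the closest, with a Pearson correlation of 0.965, a Spearman correlation of 0.964 and a Pearson correlation of 0.915 over the 9 libraries other than p212fs. It had 143, 128 and 139 CPM in WT, 99.0, 141 and 133 in Trex1-/-, 105, 86.9 and 104 in D18N, and 214 and 213 in p212fs. Akr1b3, Tmem88, Hoxb6, Psmd5, Coa4, Fam3c, Ssr1, Ormdl1 and Cndp2 followed, with Pearson correlations from 0.962 down to 0.951 and, without p212fs, from 0.815 to 0.902. Of these 10, Dnajb11 and Ssr1, a subunit of the translocon-associated complex, were on the lists used above. The libraries share depth and genotype, and the p212fs libraries lie apart from the rest, so these values describe likeness of pattern alone.

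The letters of the ERSE gave a set of genes that partly overlaps the lists above. The 5 members with a complete ERSE were left out of it. Those members had been chosen by their levels in these libraries, so the remaining set is not free of that choice. Of 32 further genes with a complete ERSE in their window 16 were tested, and in p212fs against WT 3 rose and 2 fell (median log2 fold change 0.02), where 8.13% and 8.95% of all genes did. Those that rose were Canx, the oxidase gene Ero1b (0.70 ± 0.20) and Derl3, a degradation factor with 2.15 CPM in p212fs and 0.579 in WT (1.81 ± 0.54). All 3 were on the lists above and already counted there, so they add no new calls. Dnajc3, a BiP cochaperone and inhibitor of PERK (-0.01 ± 0.15), and the ubiquitin ligase gene Syvn1 (0.32 ± 0.17, edgeR adjusted p = 0.212) did not pass. Derl3, Ero1b and Canx lost their calls with the sex term or with either p212fs library left out. Those that fell were Adcy3 (-0.79 ± 0.14) and Pan2 (-0.61 ± 0.15). This set was formed, and its genes named, after the data had been seen.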

How the data were processed

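The authors deposited 1 table of raw read counts by gene, whole numbers with unequal library totals. The submitters' processing notes name fastp, featureCounts, HISAT2 and the build GRCm39, with tool versions, annotation and strand setting not given in the sources used here. The 1654 rows without a gene name (0.0804% to 0.129% of a library's counts) were left out.

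Counts were fitted with edgeR 4.0.16 (R 4.3.3), by the quasi-likelihood test with robust estimation, after filterByExpr (minimum count 10) and TMM scaling. All 11 libraries entered a single fit, whose only factor was genotype. P-values were adjusted over 16990 genes by the Benjamini-Hochberg method (threshold 0.05). Approximate standard errors divide the size of a log2 fold change by the square root of its F statistic. CPM used the library total of named genes, without TMM factors (0.96 to 1.04).

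The 10 genes and all lists were chosen with earlier results of these data known. From each list and comparison with WT, the 3 called genes of smallest p, or the 2 most abundant where none passed, were to be named, and the 10 genes with a mean of at least 5 CPM most like the members. Not all are named. Gene spans and exon lengths are from GENCODE M21 (GRCm38) and promoters from RefSeq (GRCm38.p6), not the build of the counts. Alternatives were DESeq2 1.42.0, its size factors, no filter, each library left out, replicate number as a block, embryo sex as a term, and the compared genotypes alone. Protein sequences were not analysed here.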

Additional observations from a re-analysis of the deposited data

How the results depend on the processing

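The median log2 fold change of the members kept its direction in every comparison under every alternative run, except Trex1-/- against WT without Trex1-/- replicate 1. With 1 library left out it ran from -0.26 to 0.02 in Trex1-/- against WT, and the calls of 6 members in p212fs depended on both p212fs libraries. Of 1054 values for named pathway genes 140 lost their call, 2 gained one and 912 kept their side of the threshold, and none reversed. By gene, 6 of the 23 picked by the naming rule in p212fs against WT never lost their call, and 14 of 23 in D18N. The 16 picked in Trex1-/- had no call to lose. Counts of called genes moved more. In Trex1-/- against WT (0 genes by edgeR) they were 261 without a filter, 380 with the sex pattern as a term (331 higher, 49 lower) and 846 by DESeq2, which called 2 of the 153 listed genes. With the sex term D18N against WT gave 2379 genes (1368 higher, 1011 lower, against 2065 and 2238) and 18 listed genes, and p212fs against WT 1331 and 17. The fit of only the compared genotypes gave 30 listed genes in D18N against WT. D18N against Trex1-/- (1155 genes, 8 listed) gave 417 and 3 in that fit, 2035 and 20 by DESeq2, and 1843 and 14 in male-pattern libraries. The cause was not tested. With 1 library left out, genes and listed genes called ran from 0 to 2269 and 0 to 24 in Trex1-/- against WT, 1662 to 5350 and 18 to 63 in D18N against WT, 494 to 3947 and 8 to 65 in p212fs against WT, 406 to 1917 and 2 to 19 in D18N against Trex1-/-, 1622 to 6254 and 27 to 84 in p212fs against Trex1-/-, and 2674 to 7185 and 41 to 98 in p212fs against D18N; where 1 p212fs library was left, it was assumed to vary like the other groups. Replicate numbers did not pair the libraries (correlations of same-numbered deviations -0.209 to 0.14 over 15 pairs). The replicate block gave 1966 genes in p212fs against WT, 3801 in D18N and 0 in Trex1-/-, and 5 members called in p212fs. All 10 members passed the filter on low counts, and p212fs had 2 libraries.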
